A study of Mus musculus with 31 samples.

Results

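Ifi27l2a and Epsti1 are a pair of interferon-induced genes, 2 of the 485 genes in a table of 31 libraries made from CD4+ or CD8+ T cells of the mouse choroid plexus. They were chosen by name, with their measured CD4 and CD8 values already known, so their CD4 vs. CD8 levels are given as a description with no test. Each library held RNA from 6 to 20 T cells sorted as CD45+CD11b-CD3+ and CD4+ or CD8+ from female C57BL6/J mice. From 4 weeks of age they had lived for 4 weeks in EE, an enriched environment with wheels to run in, toys, tunnels and ample space, or, age-matched, in SE, a standard environment of smaller cages that held no such objects. There were 9 CD4 EE, 8 CD4 SE, 7 CD8 EE and 7 CD8 SE libraries. Each experiment took the mice of an environment from 1 cage, so effects of the cage and of the environment cannot be told apart, and 10 mice gave both a CD4 and a CD8 value.

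Interferons are secreted proteins that warn cells of infection. Type I interferons and interferon gamma bind separate receptors, whose kinases pass the signal to transcription factors that switch on a large set of interferon-stimulated genes. Ifi27l2a, also called Isg12, codes for a small hydrophobic protein of the ISG12 family and is one of the genes that respond to type I interferon in many mouse cell types. Epsti1, epithelial stromal interaction 1, was first described in breast cancer cells in contact with fibroblasts and is also induced by interferon in immune cells.

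In the GENCODE annotation of the GRCm38 mouse genome, Ifi27l2a (ENSMUSG00000079017.3) lies on the minus strand of chromosome 12 between positions 103442167 and 103443680 and has 1 transcript. Its relatives are its neighbours, with Ifi27 ending 1927 bases before it and Ifi27l2b starting 7217 bases after it. Epsti1 (ENSMUSG00000022014.15) lies on the plus strand of chromosome 14 between positions 77904239 and 78002657 and has 3 transcripts. No other annotated gene overlaps either of them. The first 90 coding bases of Ifi27l2a and of Ifi27l2b are shown because they are the closest pair of these 3 neighbours, and capitals mark the 14 bases at which the pair differ. They were read 5′ to 3′ from 3 coding exons each, at chr12:103443627-103443633, chr12:103443482-103443511 and chr12:103442941-103442993 for Ifi27l2a and at chr12:103457153-103457159, chr12:103457015-103457044 and chr12:103456467-103456519 for Ifi27l2b, all on the minus strand.
Ifi27l2a: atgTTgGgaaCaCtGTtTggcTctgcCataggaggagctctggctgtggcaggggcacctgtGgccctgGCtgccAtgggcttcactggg
Ifi27l2b: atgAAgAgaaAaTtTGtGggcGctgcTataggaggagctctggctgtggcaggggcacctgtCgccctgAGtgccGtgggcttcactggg

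The other 76 of these 90 bases were identical, and the longest identical run covered positions 28 to 62, counted from 1 at the start codon. Of the 433 words of 31 bases in the Ifi27l2a transcript, 26 (6.00%) also occurred in another gene, and that gene was Ifi27l2b. Counts of Ifi27l2b were not analysed here, and how the counting treated reads that fit both genes was not tested. The first 90 coding bases of Epsti1 lie in 1 exon, at chr14:77904486-77904575 on the plus strand, and none of its 2319 words occurred in another gene.
Epsti1: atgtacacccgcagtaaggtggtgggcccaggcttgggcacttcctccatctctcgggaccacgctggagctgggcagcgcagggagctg

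Values are normalised UMI counts. A unique molecular identifier (UMI) tags each captured molecule before amplification, and the count of each library was divided by a size factor for its depth. UMI totals over the genes of the table ran from 1910 to 26395 (median 5097). Sample titles carry a first number, 1 or 2, whose meaning the labels do not give and which may mark the series of experiments. The 19 libraries with number 1 held 1910 to 10089 UMIs, and the 12 with number 2 held 7657 to 26395. The sorted identities matched their labels: Cd4 was at 0 in the 14 CD8 libraries, and Cd8a and Cd8b1 were at 0 in the 17 CD4 libraries, where the authors had removed samples with any Cd8a or Cd8b. Cd4 itself was at 0 in 1 CD4 library.

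Ifi27l2a was the more abundant of the pair. Its mean normalised count over the 31 libraries was 11.8, rank 142 of 485 genes, from 483 UMIs in all. Epsti1 had a mean of 3.12, rank 478, from 147 UMIs, close to the lowest mean in the table (2.66). At this depth Epsti1 rested on few molecules, with a median of 2 UMIs in CD4 libraries and 5 in CD8 libraries.

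In CD4+ T cells Ifi27l2a was detected in all 17 libraries. In CD4 EE its normalised count was 7.24 at the lowest, 15.3 at the median and 35.2 at the highest, from 5 to 73 UMIs, with a mean of 18.5 ± 8.61 (SD, n = 9). In CD4 SE it was 7.99, 11.7 and 32.9, from 4 to 28 UMIs, with a mean of 15.3 ± 8.02 (n = 8). Both ranges start and end at nearly the same level, so the housing groups overlap almost completely.

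In CD8+ T cells Ifi27l2a was lower. The CD8 EE libraries had 0 at the lowest, 4.11 at the median and 15.4 at the highest, with a mean of 6.55 ± 5.67 (SD, n = 7). The CD8 SE libraries had 0.910, 3.82 and 11.0, with a mean of 4.31 ± 3.23 (n = 7). CD8 EE replicate 7 was the only library without an Ifi27l2a UMI, where the floor of 3 UMIs equals a normalised count of 5.89, above the CD8 median of 3.96. Such floors cover counting error only.

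The order of the Ifi27l2a group means was CD4 EE, CD4 SE, CD8 EE and CD8 SE. The steps between the housing groups of one cell type were smaller than the SD of either group, and the step from CD4 SE to CD8 EE was larger than both of their SDs. Pooled over housing, the mean was 17.0 ± 8.24 (SD, n = 17) in CD4 and 5.43 ± 4.58 (n = 14) in CD8, a ratio of 3.13. Every CD4 library was above the CD8 mean and every CD8 library below the CD4 mean. Of the 14 CD8 libraries, 10 were below the lowest CD4 library, and of the 17 CD4 libraries, 7 were above the highest CD8 library.

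**Figure D1:**
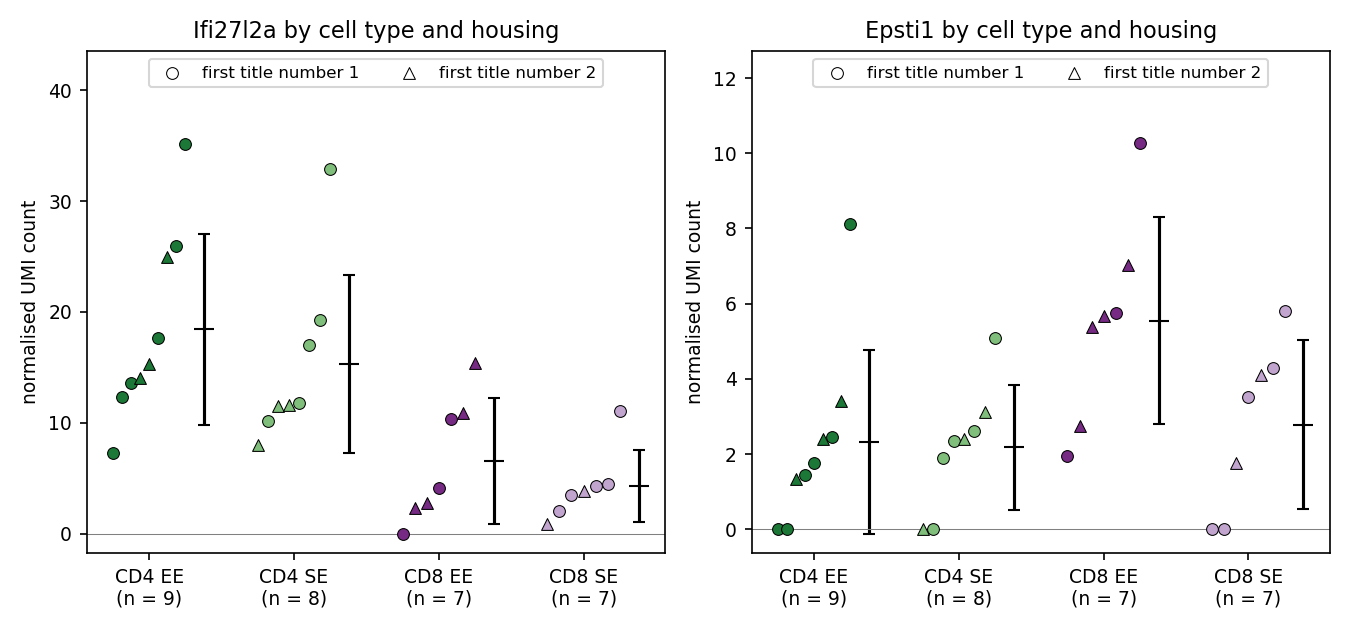
Normalised UMI count of Ifi27l2a (left) and Epsti1 (right) in each library, by cell type and housing. Circles are libraries with first title number 1 and triangles those with number 2, and the bars beside them give the group mean ± SD. Ifi27l2a sits at 7.24 to 35.2 in the CD4 groups and at 0 to 15.4 in the CD8 groups, while Epsti1 reaches its highest value, 10.3, in CD8 EE.

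For Epsti1 the means of the cell types stood in the opposite order, and within each cell type the EE mean was again the higher. In CD8 EE it was detected in each of the 7 libraries, at 1.96 at the lowest, 5.68 at the median and 10.3 at the highest, with a mean of 5.55 ± 2.75 (SD, n = 7). In CD8 SE it was 0, 3.52 and 5.81, with a mean of 2.78 ± 2.24 (n = 7). The upper 4 of the 7 CD8 SE values lie inside the CD8 EE range, so these groups overlap too.

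Epsti1 was lowest in CD4. In CD4 EE it was 0 at the lowest, 1.77 at the median and 8.12 at the highest, with a mean of 2.33 ± 2.44 (SD, n = 9). In CD4 SE it was 0, 2.38 and 5.08, with a mean of 2.18 ± 1.65 (n = 8). The means of CD8 SE, CD4 EE and CD4 SE stand within an SD of each other, and CD8 EE stands above them. No Epsti1 UMI was seen in 6 libraries, 2 each of CD4 EE, CD4 SE and CD8 SE, where the floor of 3 UMIs was a normalised count of 2.05 to 8.81. Pooled over housing, Epsti1 was 4.17 ± 2.80 in CD8 (n = 14) and 2.26 ± 2.04 in CD4 (n = 17), a CD8 to CD4 ratio of 1.84.

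On the scale log2(normalised count + 1), the CD4 minus CD8 difference was 1.71 for Ifi27l2a (SE 0.291), the 3rd highest of 485 genes. For Epsti1 it was -0.67 (SE 0.340), the 16th lowest. Both ranks describe members chosen with these values known. The fit took CD4 and CD8 libraries of a mouse as independent. With the mouse as a replicate block the differences were 1.68 and -0.66. Of all genes, 7.42% (36 of 485) were called in this contrast by limma at an adjusted p under 0.05, and the members carry no call because they were chosen with it known. The Ifi27l2a difference had nearly the same size within EE (1.71) and within SE (1.70), and it was 1.91 among libraries with number 1 and 1.60 among those with number 2. The Epsti1 difference was -1.16 within EE and -0.15 within SE, and -0.54 and -0.77 within numbers 1 and 2. The test of whether these EE and SE values of Epsti1 differ, given with the housing results, did not pass. The choroid plexus epithelial genes Ttr and Enpp2 are the 2 of 6 listed genes that the table holds. Their summed normalised counts had a median of 173 in CD4 (76.4 to 263) and 100 in CD8 (74.9 to 312). These ranges overlap, the sums are given without a test, and their part in the member differences was not tested.

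Both cell types were available from 10 mice as the titles number them, of which 5 were EE and 5 SE. For 1 SE mouse the CD8 value was the mean of CD8 SE replicates 5 and 6, whose titles give animal 5 while their column names give 5 and 6 together, so a pool of animals is possible there. Ifi27l2a was higher in the CD4 cells of 8 of the 10, with a mean log2 difference of 1.52 ± 1.32 (SD, -0.46 to 3.87). The widest gap was in an EE mouse with 13.6 in its CD4 cells and 0 in its CD8 cells, and the mice that went the other way had 7.24 and 10.4 (EE) and 10.2 and 11.0 (SE). Epsti1 was lower in the CD4 cells of 7 of the 10, with a mean of -0.70 ± 1.38 (-3.49 to 1.74). An EE mouse with 0 in CD4 and 10.3 in CD8 lay at one end, and an SE mouse with 2.35 and 0 at the other. At these 0 values of Epsti1 the floor of 3 UMIs was a normalised count of 8.81 and 6.79, the latter above the 2.35. For the 0 of Ifi27l2a it was 5.89, so the ends of these ranges rest on few molecules. Without the mouse of uncertain number the counts were 7 of 9 for both genes, with means of 1.52 ± 1.40 and -0.79 ± 1.43.

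**Figure D2:**
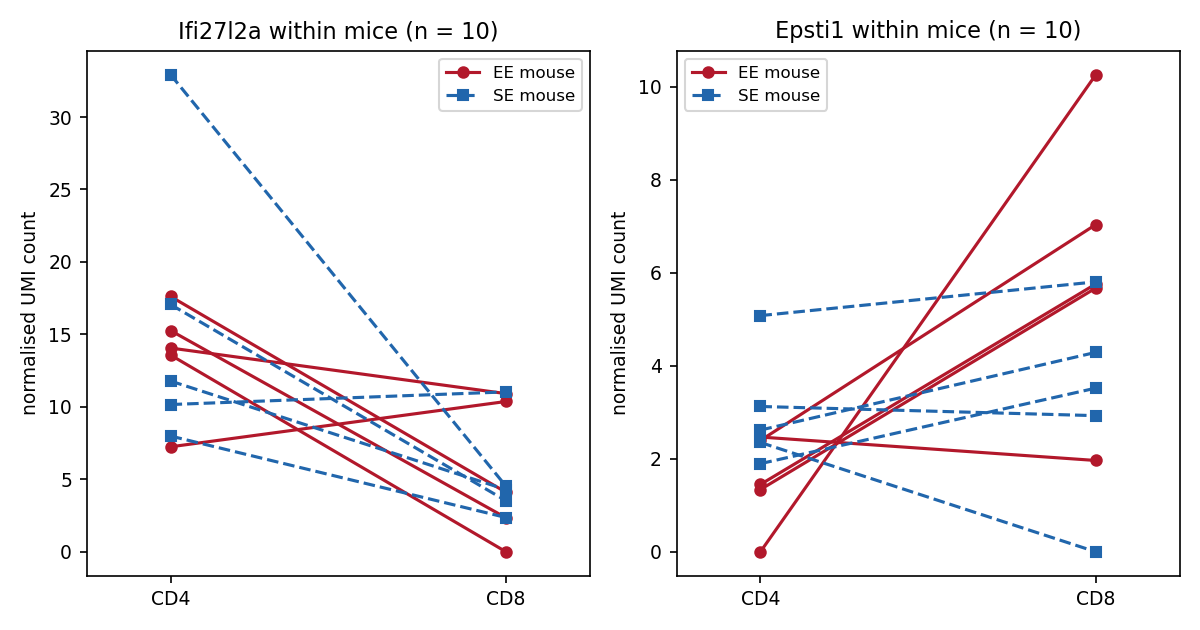
Normalised UMI count of Ifi27l2a (left) and Epsti1 (right) in the CD4 and CD8 cells of the same mouse, with 1 line for each of 10 mice (solid, EE, dashed, SE). Most Ifi27l2a lines descend from CD4 to CD8 (8 of 10) and most Epsti1 lines climb (7 of 10).

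Counted in molecules, the balance of the pair differed between the cell types. In all 17 CD4 libraries there were more Ifi27l2a than Epsti1 UMIs. In CD8 this was so in 7 of 14 libraries, with 3 more having equal counts. Of the UMIs of both genes in a library, Ifi27l2a held a median of 87.5% in CD4 (66.7% to 100%) and 57.1% in CD8 (0 to 100%). The CD8 ends rest on very few molecules. The 0% was CD8 EE replicate 7, with 1 Epsti1 UMI, and the 100% was CD8 SE replicates 4 and 7, with 1 and 2 Ifi27l2a UMIs. Like the levels, this balance is a description of genes chosen with their CD4 and CD8 values known. Transcript lengths were not taken into account.

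**Figure D3:**
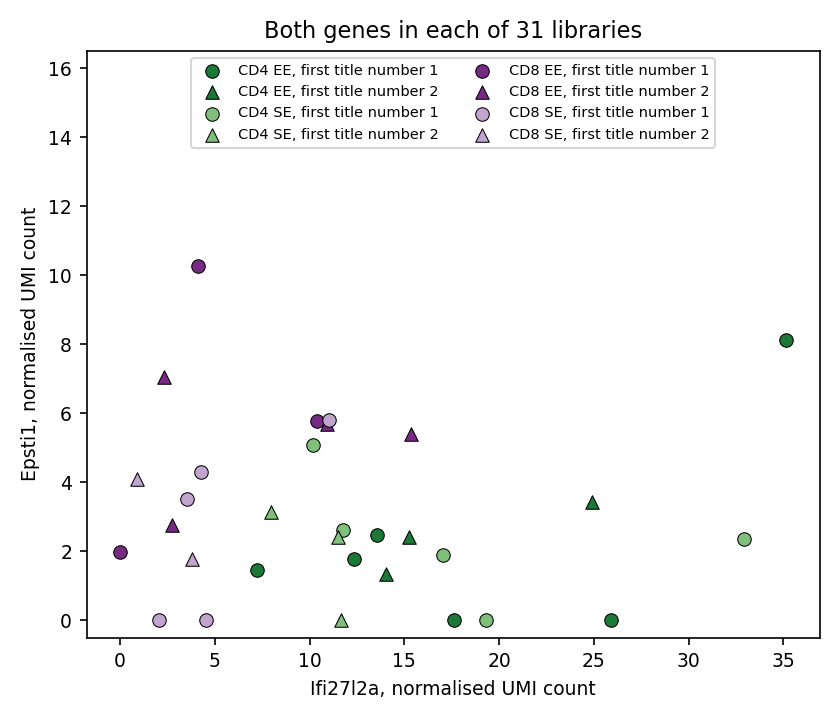
Normalised UMI count of Epsti1 (vertical) against Ifi27l2a (horizontal) in each of the 31 libraries, with colour for the group and shape for the first title number. The CD4 libraries spread along the horizontal axis up to 35.2, and the CD8 libraries stay at or under 15.4 on it but reach 10.3 on the vertical axis.

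The study asked whether housing changed expression in these T cells, and the members were not chosen on that contrast. In CD4 cells Ifi27l2a was 0.25 higher in EE on the log2 scale (SE 0.297, 95% interval -0.35 to 0.86, limma adjusted p = 0.992), with 4 of 9 EE libraries above the SE mean. In CD8 cells it was 0.24 higher (SE 0.522, -0.84 to 1.31, limma adjusted p = 0.991), with 3 of 7 EE libraries above the SE mean. These differences were smaller than the spread between libraries, and the exact two-sided permutation tests gave p = 0.411 and 0.703. In CD8 the difference was 0.68 with edgeR and 0.64 with DESeq2, and 0.11 with CD8 SE replicates 5 and 6 averaged into 1 value. The summed counts of Ttr and Enpp2 had medians of 173 in CD4 EE, 155 in CD4 SE, 126 in CD8 EE and 94.6 in CD8 SE, and their part in these results was not tested either.

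For Epsti1 the housing difference in CD4 cells was close to 0, at -0.013 (SE 0.482, -0.997 to 0.97, limma adjusted p = 0.994). In CD8 cells EE was 1.00 above SE (SE 0.477, 0.015 to 1.98), the 7th highest of 484 genes, and 5 of 7 EE libraries were above the SE mean. The limma p was 0.0469 before and 0.950 after adjustment over all genes, so it did not pass. The exact permutation test gave p = 0.0734 for the same difference, or 0.294 adjusted over the 4 such tests on the members. With CD8 SE replicates 5 and 6 averaged the difference was 1.04 (limma adjusted p = 0.877). Its unadjusted limma p, 0.0504, then lay just above 0.05. The difference was 0.52 with a pseudocount of 4, 1.14 among libraries with number 1 and 0.67 among those with number 2. When 1 library was left out it ran from 0.73 to 1.19. It was at its lowest, 0.73, without CD8 SE replicate 4 and also without CD8 SE replicate 7, the libraries of that group with no Epsti1 UMI. Their floors, normalised counts of 6.20 and 6.79, lie above the CD8 EE mean of 5.55, so their 0 values cannot place them below that mean.

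In the whole table limma called 0% of genes for EE vs. SE in CD4 (0 of 483) and 0% in CD8 (0 of 484). The unadjusted p was under 0.05 for 18 genes in CD4 and for 12 in CD8. The edgeR quasi-likelihood test and DESeq2 on the UMI counts each called 1 gene in CD4, Dnaja1, which was lower in EE and is named here only because of that call and 0 in CD8. At an unadjusted p under 0.05 edgeR had 16 genes in CD4 and 12 in CD8, and DESeq2 had 14 and 6. Neither member was called by any of these tools.

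An interaction term over all 31 libraries tested whether housing acted differently on CD4 and CD8 cells. The effect of EE on Ifi27l2a differed by 0.017 between CD4 and CD8 (SE 0.589, -1.17 to 1.204, limma adjusted p = 0.996). On Epsti1 it was lower in CD4 than in CD8, by a log2 difference of -1.01 (SE 0.672, -2.36 to 0.34, limma adjusted p = 0.976). With intervals this wide, housing effects differing by 2-fold between cell types could not be told from none. For Ifi27l2a this held in both directions, and for Epsti1 only for a lower effect in CD4. For the interaction limma called 0% of the genes (0 of 485, with 12 at an unadjusted p under 0.05), and edgeR and DESeq2 called 0 each (9 and 8).

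Neither member passed the test between the first title numbers. The number 2 minus number 1 difference, with the group as a term, was -0.12 for Ifi27l2a (SE 0.307, limma adjusted p = 0.841) and 0.13 for Epsti1 (SE 0.354, limma adjusted p = 0.850), against 10.7% of all genes called (52 of 485). Within the numbers, the CD4 EE minus SE difference of Ifi27l2a was -0.019 for number 1 and 0.72 for number 2, and in CD8 it was -0.50 and 1.21. None of these within-number values passed the limma test after adjustment (smallest adjusted p = 0.911 in CD4 and 0.944 in CD8 over all alternatives). For number 1 libraries the means were 18.6 ± 10.2 (SD, n = 6) in CD4 EE and 18.2 ± 9.02 (n = 5) in CD4 SE. For number 2 libraries they were 18.1 ± 5.95 (n = 3) and 10.4 ± 2.07 (n = 3), with the EE means close together and the SE means apart.

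The rest of the interferon pathway gave the setting for the pair. Of 134 listed interferon genes, the table held 26, the members included. Many classical interferon-stimulated genes, such as Isg15, Ifit1 and Mx1, are on the list but were not analysed here. In the housing comparison 0 of the 24 other genes passed the limma test in CD4 or in CD8, and 0 reached an unadjusted p of 0.05 in either (edgeR and DESeq2 called 0 of them, and at an unadjusted p under 0.05 edgeR had 1 in CD8). In CD4 16 of the 24 had a positive and 8 a negative log2 difference, with a median of 0.058 against -0.036 over all genes. In CD8 the split was 15 and 9, with a median of 0.083 against 0.042.

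Interferon gamma (Ifng), the ligand made by T cells, had a mean of 11.4 ± 12.6 in CD4 EE (SD, n = 9), 6.89 ± 5.92 in CD4 SE (n = 8), 4.98 ± 3.80 in CD8 EE (n = 7) and 4.75 ± 3.40 in CD8 SE (n = 7). A single CD4 EE library reached 40.6, and the log2 EE minus SE difference in CD4 was 0.29 (SE 0.520, limma adjusted p = 0.992). The receptor chain Ifngr1 had an EE minus SE difference of 0.012 in CD4 and -0.43 in CD8. The listed type I interferon and receptor genes were not analysed here.

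Among the signalling genes, the kinase Jak1 and the transcription factor Irf1 had CD4 minus CD8 differences of -0.077 and -0.089, neither past the limma test.

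Of the induced genes other than the members, Ly6e, a surface protein of the Ly6 family, was higher in CD4, at 29.7 ± 7.64 (SD, n = 17) against 18.8 ± 7.84 in CD8 (n = 14). Its log2 difference was 0.72 (SE 0.190, limma adjusted p = 0.0119), less than that of Ifi27l2a, and it was called in each of the 31 limma fits that left out 1 library (largest adjusted p = 0.0285). Over the main fit and its alternatives, 41 of 44 called Ly6e, and it was higher in CD4 in all 44. The limma fits that did not call it were within number 1 (adjusted p = 0.193), within EE (0.207) and within SE (0.232). Ifi27, the neighbour and relative of Ifi27l2a, did not pass the test, with 4.07 ± 2.44 in CD4 and 3.83 ± 3.11 in CD8 and a difference of 0.20 (SE 0.323, limma adjusted p = 0.773). The GTPase gene Irgm2 had a difference of 0.84 (SE 0.354, limma adjusted p = 0.143) and was called by edgeR (1.23, adjusted p = 0.0367) and DESeq2 (1.31, adjusted p = 0.0183).

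In all, 1 of the 24 other interferon genes, Ly6e, was higher in CD4 by limma and 0 were lower, against the 7.42% called over all genes. The edgeR and DESeq2 tests each called 2 of the 24, Ly6e and Irgm2, against 46 and 55 of all 485 genes. The direction was positive for 18 and negative for 6 (275 and 210 over all genes), with a median of 0.22 against 0.072 over all 485 genes. The antigen presentation genes held 7 of the positive and 3 of the negative values, with a median of 0.12 and no call. The non-classical class I gene H2-T23 had the highest value among them, 0.72 (SE 0.327, limma adjusted p = 0.184), and the class I genes H2-Q6 and H2-Q7 had values of -0.36 and -0.32. The levels of B2m, the light chain of class I, were 64.0 ± 17.3 in CD4 and 58.3 ± 12.1 in CD8. Epsti1 had a lower CD4 minus CD8 value than any of the 24, and Ifi27l2a a higher one. The members were chosen with these values known, so their places at the ends are only a description.

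**Figure D4:**
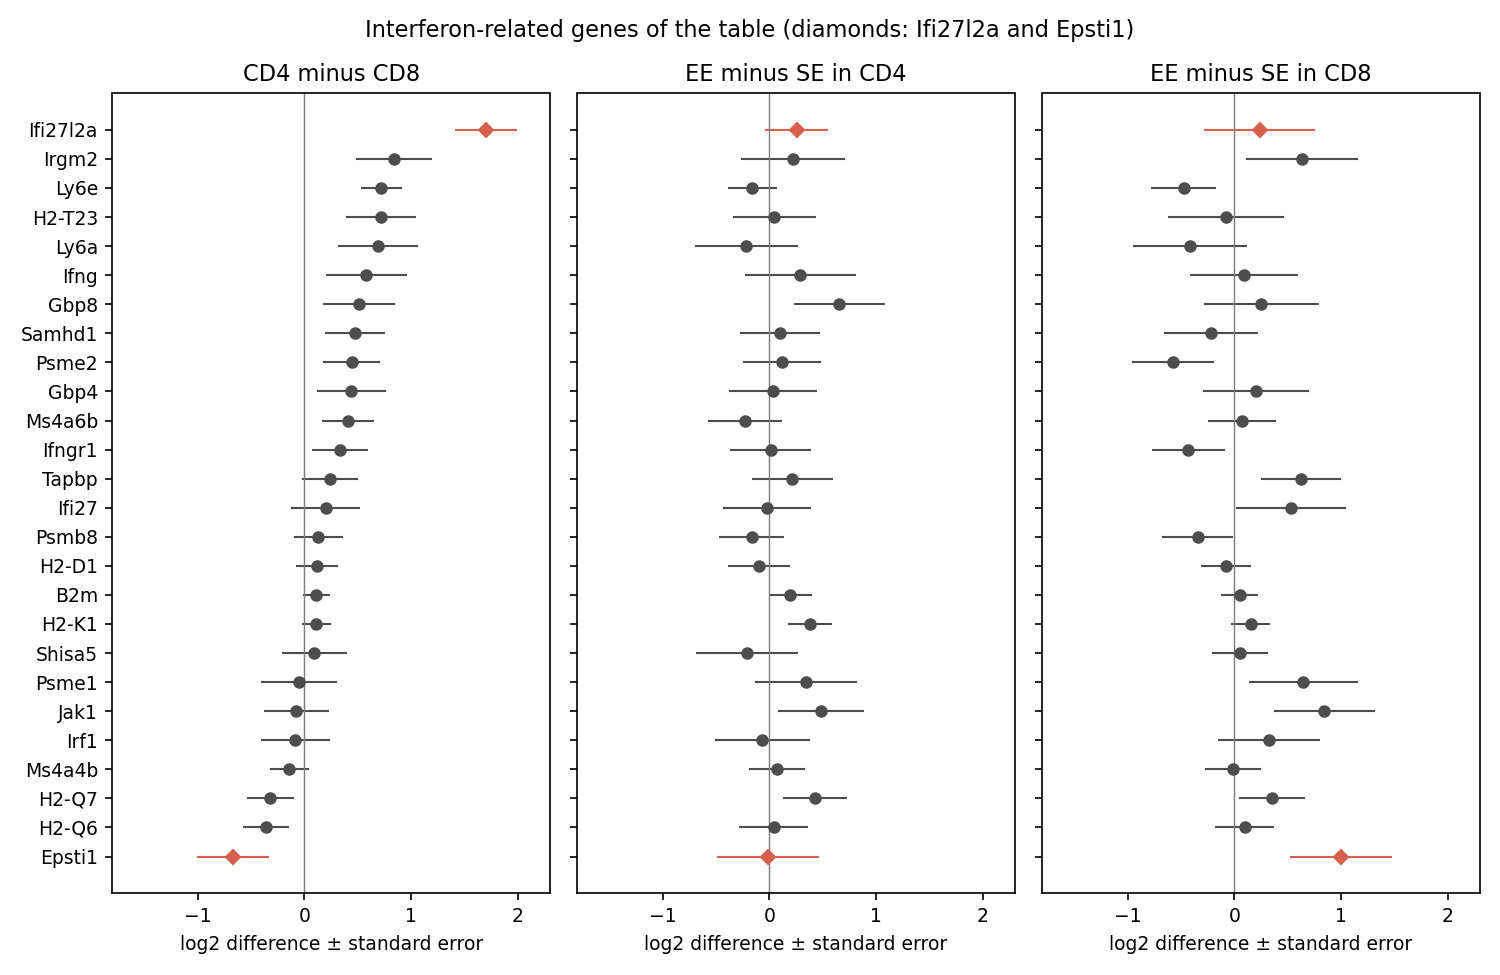
Log2 difference ± standard error for Ifi27l2a and Epsti1 (diamonds) and the 24 other listed interferon genes (circles), for CD4 minus CD8 (left), EE minus SE in CD4 (middle) and EE minus SE in CD8 (right), with genes ordered by the left panel. Ifi27l2a (1.71) and Epsti1 (-0.67), chosen with their CD4 and CD8 values known, stand at the ends of the left panel. There 18 of the other 24 lie above 0. In the middle panel Ifi27l2a and Epsti1 lie at 0.25 and -0.013.

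Promoter windows of the pathway were searched for the elements that interferon-activated factors bind. A window held 250 bases before to 50 bases after a RefSeq gene start, 300 bases in all, and both strands were read. The interferon-stimulated response element, written GAAANNGAAA, was present in 3.44% of 32851 windows and in 5 of the 20 listed genes of the table that have a window, namely B2m, H2-T23, Irgm2, Psme1 and Shisa5. The gamma-activated sequence, written TTCNNNGAA, was present in 8.30% of windows and in 6 of the 20, namely Ifng, Irf1, Irgm2, Psmb8, Samhd1 and Shisa5. The Epsti1 window, at chr14:77903989-77904288 in GRCm38.p6, held neither string of letters, and Ifi27l2a was not searched. A match is only a description of these letters.

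Genes that varied most like each member were ranked over the 31 libraries, as a description of libraries that share depth, cell type and mice. For Ifi27l2a the highest Spearman rho were with Cd4 (0.746), the nuclear RNA Malat1 (0.708), the chemokine receptor Cxcr6 (0.656), Hnrnpa2b1 (0.612) and Rasal3 (0.578). When the mean of each group and first title number was subtracted, the highest Pearson r were with Hnrnpa2b1 (0.525), Chchd2 (0.518), Gnb2l1 (0.515), the immunoproteasome subunit Psmb8 (0.507) and Cxcr6 (0.504). Malat1 dropped to 0.051 in that ranking, and the choroid plexus transcript Ttr had the lowest r of 484 genes (-0.537). The Spearman rho of Ttr with Ifi27l2a over all libraries was 0.137. Cst3, the only gene of the myeloid marker list in the table, had an r of -0.466 with Ifi27l2a. Which cells the Cst3 RNA came from was not tested.

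For Epsti1 the highest Spearman rho were with Ctsw (0.607), a protease of cytotoxic lymphocytes, Rps2.ps13 (0.562), Cd8b1 (0.477), Rps2 (0.467) and Lime1 (0.462). After the group and number means were subtracted they were Rps2.ps13 (0.645), Hnrnpf (0.638), Actg1 (0.631), H2afj (0.580) and Rps2 (0.570). Rps2 and its pseudogene can share reads, so these are not separate likenesses. In the same ranking Ttr had an r of -0.328 with Epsti1, Cst3 0.175 and Malat1 0.241. The listed genes Ifng, Irf1 and Ifi27 had 0.476, -0.046 and 0.083 with Epsti1, and 0.0014, 0.163 and -0.178 with Ifi27l2a. Between the members, rho was -0.180 over all libraries, -0.097 in CD4 and 0.400 in CD8. With the group and number means subtracted, their r was 0.224. The value over all libraries includes their opposite CD4 and CD8 levels, which were known when the pair was chosen. Epsti1 also varied with the number of sorted cells in CD4 (rho 0.621, n = 17), and less so in CD8 (0.106, n = 14). For Ifi27l2a these values were -0.018 in CD4 and 0.305 in CD8. In pools of cells, more expressing cells and more RNA per cell cannot be told apart.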

How the data were processed

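RNA of sorted choroid plexus T cells was measured in 31 libraries, grouped by cell type and housing from the sample titles. The authors trimmed adaptors with cutadapt, kept reads with the UMI pattern, mapped them with STAR (2.4.0a, per the labels) to mm10 (GRCm38), counted UMIs per gene, dropped rare genes and divided by DESeq2 size factors. The deposited values are therefore a normalised count signal. All 31 columns were used. UMI counts were recovered as whole multiples of a step in each column, and 100% of values came out whole within 0.01 UMI.

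The main test was limma (3.58.1, R 4.3.3) on log2(normalised count + 1), a scale that understates changes of low genes, with a trended prior, two-sided, Benjamini-Hochberg adjustment over all genes above 0 in at least 1 library and a threshold of 0.05. The pipeline was tested on simulated data. edgeR (4.0.16) and DESeq2 (1.42.0) on the UMI counts, pseudocounts of 0.5 and 4, a minimum mean of 5, equal totals, blocks, within-number fits and leave-one-out fits were alternatives. Single values used exact permutation tests (scipy 1.17.1). The p-values measure the spread between libraries.

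A mouse was defined by environment, first title number and animal number. CD8 SE replicates 5 and 6 are alike in all 3 by title, while their column names join animals 5 and 6. They were averaged in the mouse pairs and counted as 2 libraries in the tests, with their average as an alternative. This animal identity, and not the replicate numbers (given in accession order), pairs CD4 with CD8 libraries. The members and gene lists were chosen with earlier results of these data known. A listed item is not reported here and was left out of the list counts. The genes named are the members, the listed interferon genes of the table and, for each member, the 5 most alike genes by Spearman rho over libraries and the 5 by Pearson r within group and number. Of the members, 1 of 2 matched the RefSeq promoter table.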

Additional observations from a re-analysis of the deposited data

Results flagged for a closer look

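Each member was checked in each of the 4 groups for a highest or lowest library standing far from its group, by Dixon's test at 95%, which flags about 1 group in 20 by chance. Ifi27l2a was 32.9 in CD4 SE replicate 7, the highest of 8 libraries. Ifi27l2a was 11.0 in CD8 SE replicate 2, where the other 6 libraries were at 4.52 or lower. Epsti1 was 8.12 in CD4 EE replicate 2, from 6 UMIs, and that library also had the highest Ifi27l2a value of its group (35.2).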

How the results depend on the processing

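Of 473 values computed under alternatives, 424 were classed as unchanged and 49 were not. For a tested difference, unchanged meant the same direction and the same side of the threshold. The values also include differences given without a test, such as CD4 minus CD8, which have no side of the threshold. Counts of genes called are included as well, where some change was allowed, as from 52 to 69 for number 2 vs. 1 with equal totals. No alternative brought a tested difference of a member past the threshold. The CD4 minus CD8 difference stayed between 1.198 and 1.91 for Ifi27l2a and between -1.16 and -0.15 for Epsti1. The mean filter of 5 removed Epsti1 and gave it no value. For EE vs. SE in CD4, 1 gene (Dnaja1) was called with a pseudocount of 4, with edgeR and with DESeq2, and in CD8 1 gene (Hspa1a) within number 1. Dnaja1 and Hspa1a were named after their values were seen.

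The direction of differences near 0 changed, and the cause was not tested. Epsti1 in CD4 (EE minus SE) was 0.0023 with a pseudocount of 4, 0.24 with edgeR, 0.25 with DESeq2, 0.0005 with equal totals, 0.44 within number 2 and -0.23 to 0.17 when 1 library was left out. Ifi27l2a within number 1 was -0.019 in CD4 and -0.50 in CD8, and -0.027 to 0.64 in CD8 when 1 library was left out. The Ifi27l2a interaction was -0.017 with a pseudocount of 4, -0.36 with edgeR, -0.34 with DESeq2, -0.021 with the first title number as a replicate block, -0.49 within number 2 and -0.39 to 0.28 when 1 library was left out. Values that kept their direction but moved by over 1.5 times included Ifi27l2a in CD4 when 1 library was left out (0.13 to 0.42) and within number 2 (0.72). In CD8 Ifi27l2a was 0.68 with edgeR, 0.64 with DESeq2 and 1.21 within number 2, and Epsti1 was 0.52 with a pseudocount of 4. The Epsti1 CD4 minus CD8 difference was -1.16 within EE and -0.15 within SE. The Epsti1 interaction was -0.51 with a pseudocount of 4, -0.58 with edgeR, -0.56 with DESeq2 and -0.23 within number 2. For number 2 vs. 1, edgeR called 90 and DESeq2 104 genes, and leaving out 1 library gave 46 to 69. Epsti1 there was -0.064 with edgeR, -0.15 with DESeq2, -0.025 within CD8 EE and -0.28 within CD4 SE. Ifi27l2a was 0.078 within CD4 EE, 0.86 within CD8 EE and -0.37 to 0.038 when 1 library was left out. With the mouse as a replicate block the CD4 minus CD8 differences were 1.68 and -0.66, and no block changed a call.

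Leave-one-out fits for the interaction, the number comparison and CD4 minus CD8 were chosen after seeing the data. Epsti1, with 0 to 26 UMIs a library, is limited by counting error, and 6 to 20 cells a library give each value few cells.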
